A study of Mus musculus with 12 samples.

Results

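The genes described here are 10 genes of mitochondrial fusion, fission and mitophagy, namely *Opa1*, *Mfn1*, *Mfn2*, *Dnm1l*, *Fis1*, *Mff*, *Pink1*, *Bnip3*, *Bnip3l* and *Fundc1*. They were chosen by name, and each matched 1 of the 55487 genes in the count table. RNA-seq of mouse kidney cortex gave 12 libraries in 4 groups of 3. The control mice carried floxed alleles of *Gfer*, which encodes augmenter of liver regeneration (ALR). The PT-KO mice carried the same floxed alleles with Cre driven by the *Ggt1* promoter, which is meant to delete ALR in proximal tubule cells only. All were on a mixed C57BL/6 background. Ctrl and PT-KO kidneys were sham controls, while Ctrl+I/R and PT-KO+I/R kidneys underwent bilateral ischemia for 22 min followed by reperfusion for 24 h (I/R). The mice were young adults.

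Mitochondria in proximal tubule cells form a network that is reshaped by fusion and fission. The outer membranes are joined by the mitofusins MFN1 and MFN2 and the inner membranes by OPA1, whereas the dynamin-related GTPase DRP1, encoded by *Dnm1l*, is recruited by outer membrane proteins such as MFF to cut mitochondria. Damaged mitochondria are removed by mitophagy, either after the kinase PINK1 accumulates on the outer membrane and starts their ubiquitin tagging, or through outer membrane receptors such as BNIP3, NIX (*Bnip3l*) and FUNDC1, which bind LC3-family proteins directly. *Bnip3* is a textbook target of the hypoxia-inducible factors (HIF).

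*Gfer* was not lower in the libraries labelled PT-KO. Its level overlapped between the genotypes without I/R, and after I/R all 3 libraries labelled PT-KO+I/R were above the 3 of Ctrl+I/R. Its level, in CPM (read counts scaled to library size and composition by TMM), was 12.7, 11.4 and 14.4 across the Ctrl libraries and 9.96, 17.1 and 15 across those of PT-KO. After I/R it was 15.3, 20 and 17.6 in the controls and 21.6, 22.8 and 21.6 in the libraries labelled PT-KO+I/R. The log2 difference of PT-KO from Ctrl was 0.13 ± 0.20 (SE, adjusted p = 0.761 by the quasi-likelihood test of edgeR), and that of PT-KO+I/R from Ctrl+I/R was 0.32 ± 0.13 (adjusted p = 0.0723 by edgeR). The paper reports that kidneys of PT-KO mice had less ALR than those of controls. Counts over a whole gene in whole cortex need not show the loss of single exons in 1 cell type, which was not tested. PT-KO and PT-KO+I/R therefore name libraries by their labels throughout. Totals ran from 12165089 to 23123693 counts per library, and the 10 genes had between 404 and 5504 counts in each library. Ctrl libraries 1 and 2 carried *Xist* (22402 and 19755 counts) and no Y-linked counts, and the other 10 libraries had the reverse pattern. The labels do not give sex, and the calls of the 10 genes against Ctrl are therefore also given from a fit with sex, in which Ctrl library 3 alone stands for Ctrl and is assumed to vary like the other groups. The summed level of 10 proximal tubule markers was 16450 to 18940 CPM in Ctrl, 17520 to 20340 in PT-KO, 5851 to 11730 in Ctrl+I/R and 4660 to 5337 in PT-KO+I/R. The summed level of injured tubule markers was 997 to 1988 CPM in Ctrl, 841.7 to 1144 in PT-KO, 10750 to 27640 in Ctrl+I/R and 23840 to 25900 in PT-KO+I/R. In bulk tissue, fewer cells of a type and less RNA per cell cannot be told apart.

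The promoters of 9 of the 10 genes were taken from RefSeq (GRCm38.p6) as the 250 bases before the start site. *Bnip3* and *Pink1* are shown because both are mitophagy genes that were called lower after I/R in PT-KO mice, and *Bnip3* is known for its HIF sites. The core of the HIF site was searched as ACGTG or GCGTG on both strands. Matches are in capitals, and a match on the other strand reads CACGT or CACGC. The *Bnip3* window lies at chr7:138909507-138909756 and the *Pink1* window at chr4:138326297-138326546, both on the minus strand.
Bnip3: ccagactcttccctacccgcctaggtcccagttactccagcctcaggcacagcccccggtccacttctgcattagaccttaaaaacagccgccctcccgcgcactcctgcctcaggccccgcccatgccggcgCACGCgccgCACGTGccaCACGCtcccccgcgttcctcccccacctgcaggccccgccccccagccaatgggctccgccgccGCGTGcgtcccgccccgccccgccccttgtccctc
Pink1: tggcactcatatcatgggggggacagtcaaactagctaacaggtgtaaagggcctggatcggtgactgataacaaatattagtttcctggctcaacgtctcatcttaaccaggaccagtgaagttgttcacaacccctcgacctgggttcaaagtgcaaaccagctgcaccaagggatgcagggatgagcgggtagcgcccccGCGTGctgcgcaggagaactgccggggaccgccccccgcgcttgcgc
The *Bnip3* window held 5 matches, which begin at positions -117, -108, -107, -99 and -35 before the start site, and those at -108 and -107 are overlapping matches of 1 palindrome, read on both strands. The *Pink1* window held 1 match, at -47. The *Mfn2* windows held 1 or 2 matches each, 1 of the 2 *Dnm1l* windows held 1, and the windows of *Opa1*, *Mfn1*, *Fis1*, *Mff* and *Fundc1* held none. Of 32851 windows of the same length, 38.6% held at least 1 match (16.6% ACGTG and 28.2% GCGTG). These letters are a description of the window and do not show binding.

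Levels per kilobase of exon differed widely among the 10 genes. In Ctrl, *Pink1* was at 81.2 ± 7.71 CPM per kb (SD, n = 3) and *Bnip3* at 75.7 ± 8.20, a difference smaller than their spread. *Fis1* followed at 46.2 ± 3.64, *Bnip3l* at 34.2 ± 1.43, *Mfn2* at 27.6 ± 1.23 and *Opa1* at 22.0 ± 1.29. *Mfn1* (18.9 ± 1.73) and *Dnm1l* (18.9 ± 1.52) could not be ranked, and *Fundc1* (14.8 ± 1.73) and *Mff* (9.92 ± 0.40) were lowest. *Mff* had the lowest level per kb and *Fundc1* the next lowest in all 4 groups. In Ctrl+I/R, *Bnip3* (60.1 ± 7.28) stood above *Pink1* (51.0 ± 11.9), within their spread, and in PT-KO+I/R *Pink1* (59.1 ± 3.92) was again above *Bnip3* (50.7 ± 9.88), within their spread.

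**Figure D1:**
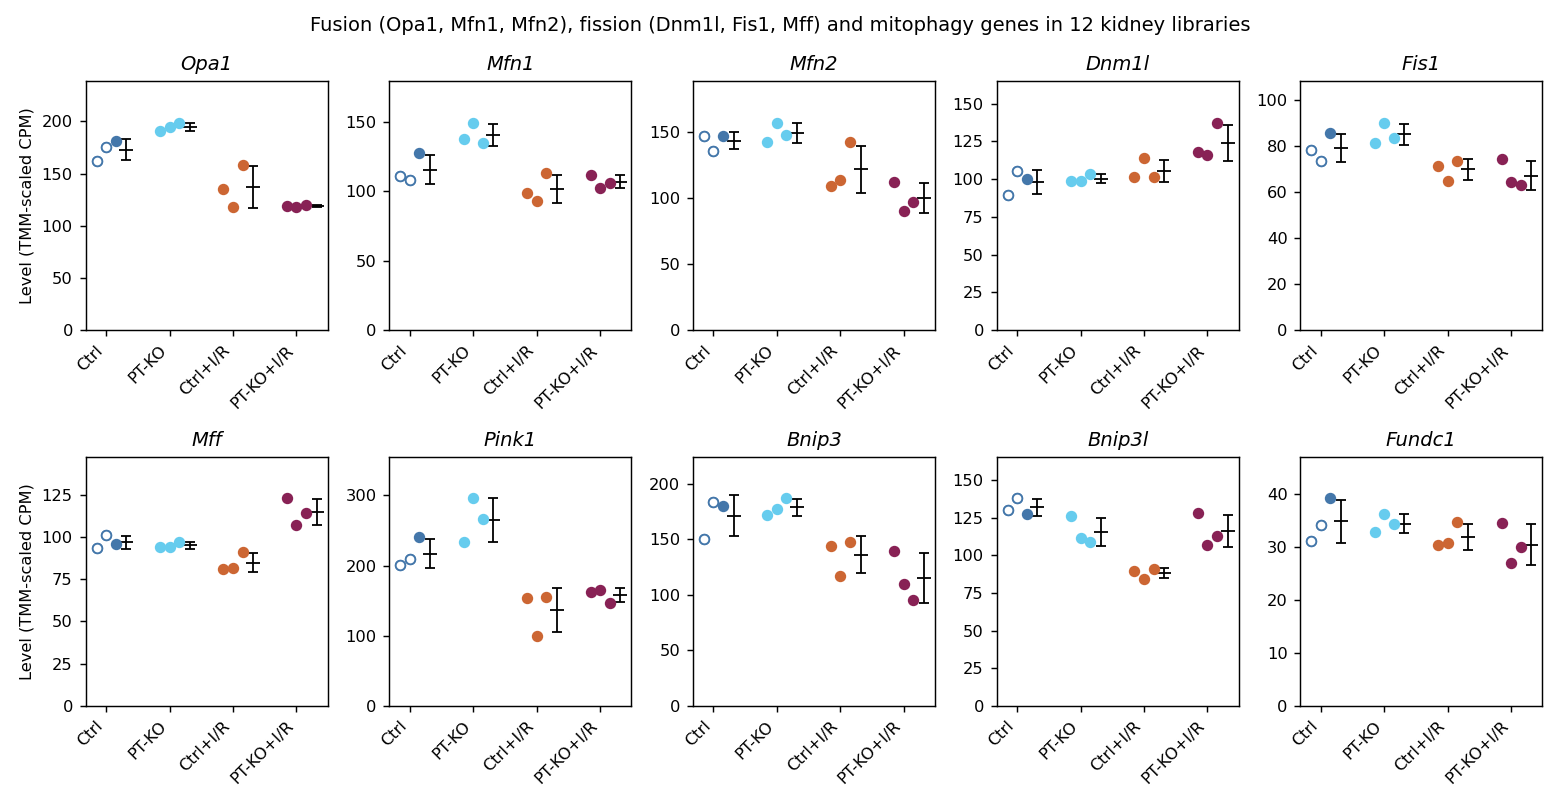
Level of each of the 10 genes in TMM-scaled CPM (y axis, from 0) in the 12 libraries by group, with the mean ± SD of each group of 3 as a black mark. Open points are Ctrl libraries 1 and 2, which carried *Xist*. *Opa1* lies between 117.9 and 119.5 CPM in PT-KO+I/R and between 191.3 and 199 in PT-KO, whereas *Bnip3l* is lowest in Ctrl+I/R.

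The fusion genes were lower after I/R in PT-KO mice. *Opa1*, the inner membrane fusion GTPase on chromosome 16 (chr16:29579334-29654884, mm10), was at 191.3, 194.4 and 199 CPM across the PT-KO libraries and 119.3, 117.9 and 119.5 across those of PT-KO+I/R. In the controls *Opa1* was at 161.7, 175.5 and 181.5 CPM across the Ctrl libraries and 134.9, 118.2 and 158.2 across those of Ctrl+I/R. The I/R libraries were below the sham libraries in both genotypes, with the widest spread in Ctrl+I/R. The log2 change was -0.72 ± 0.08 (SE) in PT-KO+I/R against PT-KO (adjusted p = 2.11e-05 by edgeR), and -0.33 ± 0.14 in Ctrl+I/R against Ctrl, which did not pass (adjusted p = 0.122 by edgeR). Without Ctrl+I/R library 4, the latter was -0.45 (adjusted p = 0.0490 by edgeR), and without Ctrl+I/R library 2 it was -0.22. The difference between these changes, tested as the knockout by I/R interaction, was -0.38 ± 0.15 (adjusted p = 0.0718 by edgeR). It passed the threshold without Ctrl+I/R library 2 (-0.49, adjusted p = 0.0140 by edgeR).

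*Mfn2*, the mitofusin that also sits at contacts with the endoplasmic reticulum, was at 142.4, 157.5 and 148.3 CPM across the PT-KO libraries and 112.4, 90.51 and 97.16 across those of PT-KO+I/R. It was at 147, 136.2 and 147.6 CPM across the Ctrl libraries and 109.5, 113.8 and 142.7 across those of Ctrl+I/R. The PT-KO groups did not overlap, and Ctrl+I/R library 4 lay within the Ctrl range. *Mfn2* fell by 0.59 ± 0.10 on the log2 scale in PT-KO+I/R against PT-KO (adjusted p = 0.000423 by edgeR), and its change in Ctrl+I/R against Ctrl was -0.23 ± 0.13 (adjusted p = 0.229 by edgeR). *Mfn1*, the mitofusin with the stronger tethering activity, was at 138, 149.7 and 134.9 CPM across the PT-KO libraries and 111.9, 102.7 and 106.4 across those of PT-KO+I/R. It was at 110.9, 108.4 and 127.8 CPM across the Ctrl libraries and 98.68, 93.43 and 113.4 across those of Ctrl+I/R. *Mfn1* fell by 0.40 ± 0.08 in PT-KO+I/R against PT-KO (adjusted p = 0.00152 by edgeR), while its change in the controls was -0.18 ± 0.12 (adjusted p = 0.318 by edgeR) and -0.09 without Ctrl library 3. PT-KO was the group with the highest *Mfn1*, above all 3 Ctrl libraries, and PT-KO+I/R lay within the range of the control groups. Neither mitofusin passed the interaction test (*Mfn2* -0.34 ± 0.17, adjusted p = 0.134 by edgeR; *Mfn1* -0.21).

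The fission genes did not move together. *Dnm1l*, which encodes the fission GTPase, was at 98.92, 98.45 and 103.5 CPM across the PT-KO libraries and 117.8, 115.9 and 137.4 across those of PT-KO+I/R. In the controls *Dnm1l* was at 89.56, 105.1 and 100.1 CPM across the Ctrl libraries and 101, 113.7 and 101.4 across those of Ctrl+I/R. All 3 PT-KO+I/R libraries were above all other libraries. *Dnm1l* rose by 0.30 ± 0.09 on the log2 scale in PT-KO+I/R against PT-KO (adjusted p = 0.0158 by edgeR), a call that was lost without PT-KO+I/R library 4 (0.22, adjusted p = 0.0625 by edgeR), and its change in Ctrl+I/R against Ctrl was 0.11 ± 0.11 (adjusted p = 0.5 by edgeR). *Mff*, which encodes an outer membrane receptor for DRP1, was at 94, 93.83 and 97.22 CPM across the PT-KO libraries and 122.9, 107.3 and 114 across those of PT-KO+I/R. In the controls *Mff* was at 93.33, 101.1 and 96.08 CPM across the Ctrl libraries and 81.15, 81.85 and 91.18 after I/R, where the I/R libraries were the lower ones. The groups did not overlap in either genotype. *Mff* rose by 0.27 ± 0.08 in PT-KO+I/R against PT-KO (adjusted p = 0.0164 by edgeR), which was lost without PT-KO library 1 (0.25, adjusted p = 0.0533 by edgeR), and its change in Ctrl+I/R against Ctrl was -0.19 ± 0.10 (adjusted p = 0.199 by edgeR). The difference between the genotypes passed the interaction test for *Mff* (0.47 ± 0.12, adjusted p = 0.0124 by edgeR), as it did for 30.6% of all 16168 genes tested. Without the low-count filter the *Mff* interaction did not pass (0.44, adjusted p = 0.0651 by edgeR). *Fis1*, which encodes an outer membrane protein first described as a fission adaptor, was at 81.33, 90.22 and 83.55 CPM across the PT-KO libraries and 74.28, 64.18 and 63.01 across those of PT-KO+I/R. In the controls *Fis1* was at 78.28, 73.31 and 85.72 CPM across the Ctrl libraries and 71.38, 64.84 and 73.49 across those of Ctrl+I/R. It fell by 0.35 ± 0.09 in PT-KO+I/R against PT-KO (adjusted p = 0.00646 by edgeR), the opposite direction to *Dnm1l* and *Mff*. An antisense transcript shares 243 exon bases with *Dnm1l* and had at most 8 counts in a library, and a transcript on the other strand shares 195 exon bases with *Mff* and had at most 28.

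*Pink1*, the kinase that starts ubiquitin-dependent mitophagy, was lower after I/R in both genotypes. It was at 201.1, 209.7 and 240.3 CPM across the Ctrl libraries and 153.7, 99.85 and 155.8 across those of Ctrl+I/R. It was at 233.6, 296.1 and 266.6 CPM across the PT-KO libraries and 162.8, 165 and 145.9 across those of PT-KO+I/R. No I/R library reached the lowest sham library. *Pink1* fell by 0.76 ± 0.10 in PT-KO+I/R against PT-KO (adjusted p = 0.000124 by edgeR) and by 0.66 ± 0.19 in Ctrl+I/R against Ctrl (adjusted p = 0.0497 by edgeR). The call in the controls lay at the threshold and was lost in 5 of 6 fits with a library left out. The log2 change was -0.71 without Ctrl library 1 (adjusted p = 0.114 by edgeR), and it was -0.67 (0.128) when Ctrl library 2 was dropped, -0.57 (0.106) for Ctrl library 3, -0.76 (0.0876) for Ctrl+I/R library 1 and -0.47 (0.0624) for the second Ctrl+I/R library. With total counts in place of TMM it was -0.55 (adjusted p = 0.057 by edgeR), and with sex in the fit, against Ctrl library 3 alone, it was -0.82 (adjusted p = 0.0313 by edgeR). The changes in the 2 genotypes differed by -0.08 ± 0.23 in the interaction test (adjusted p = 0.816 by edgeR).

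*Bnip3* and *Bnip3l*, which encode related mitophagy receptors, behaved differently after I/R in PT-KO mice. *Bnip3* was at 171.9, 177.2 and 187 CPM across the PT-KO libraries and 139.3, 109.7 and 95.36 across those of PT-KO+I/R. In the controls *Bnip3* was at 150, 183.9 and 180.3 CPM across the Ctrl libraries and 143.6, 117.2 and 147.4 across those of Ctrl+I/R. It fell by 0.65 ± 0.13 in PT-KO+I/R against PT-KO (adjusted p = 0.00131 by edgeR), while its change in Ctrl+I/R against Ctrl was -0.33 ± 0.14 (adjusted p = 0.134 by edgeR). *Bnip3l* was at 130.5, 138 and 127.2 CPM across the Ctrl libraries and 89.49, 84.25 and 91.12 across those of Ctrl+I/R. It was at 126, 111.6 and 108.6 CPM across the PT-KO libraries and 128.3, 107.2 and 113.1 across those of PT-KO+I/R. The 3 Ctrl+I/R libraries were thus below all 9 others, and the ranges of the PT-KO groups overlapped. *Bnip3l* fell by 0.57 ± 0.10 in Ctrl+I/R against Ctrl (adjusted p = 0.0134 by edgeR), and its change in PT-KO+I/R against PT-KO was 0.00 ± 0.10 (adjusted p = 0.984 by edgeR). The call in the controls was lost without Ctrl library 1 (-0.57, adjusted p = 0.0632 by edgeR) or Ctrl library 2 (-0.53, adjusted p = 0.0687 by edgeR), and with sex in the fit, against Ctrl library 3 alone, the change was -0.53 (adjusted p = 0.0274 by edgeR). The interaction was 0.59 ± 0.13 for *Bnip3l* (adjusted p = 0.00668 by edgeR) and -0.31 for *Bnip3* (adjusted p = 0.27 by edgeR). Both genes have near-identical copies to which reads could be split. The pseudogene *Bnip3l-ps* matches *Bnip3l* over 1131 bases and had 77 to 156 counts per library against 1442 to 2602 for *Bnip3l*, while the copies of *Bnip3* outside its locus had at most 18 counts. An antisense transcript that shares 504 exon bases with *Bnip3* had at most 102 counts. *Fundc1*, the receptor on the X chromosome, was the least abundant of the 10 in CPM, at 26.91 to 39.21 over all 12 libraries, and passed no test. Its log2 change was -0.12 ± 0.12 in the controls (adjusted p = 0.485 by edgeR) and -0.19 ± 0.11 in PT-KO (adjusted p = 0.158 by edgeR), where without PT-KO+I/R library 2 it was -0.28 (adjusted p = 0.0400 by edgeR).

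**Figure D2:**
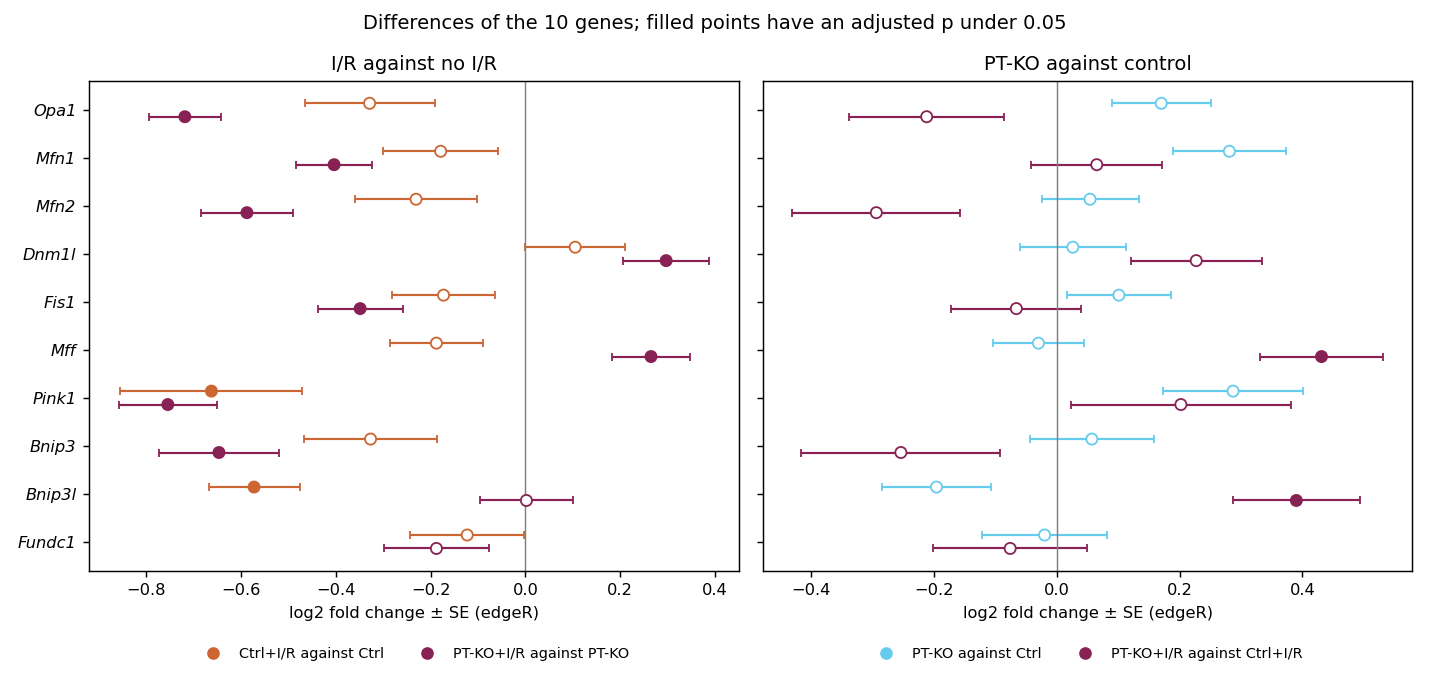
Log2 fold change ± SE from edgeR (x axis) of each of the 10 genes (y axis) for I/R against no I/R within each genotype (left) and for PT-KO against control within each treatment (right). Filled points have an adjusted p under 0.05. After I/R in PT-KO, 6 genes are filled below 0 and *Dnm1l* and *Mff* above it, and in the right panel *Mff* and *Bnip3l* alone are filled.

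In all, 8 of the 10 genes were called in PT-KO+I/R against PT-KO at an adjusted p under 0.05 by edgeR (2 higher and 6 lower). Of all 15155 genes tested, 65.5% were called (32.9% higher and 32.7% lower), so a count of 8 is not far from the background. The median log2 change of the 10 genes was -0.38, against 0.01 over all genes tested. In Ctrl+I/R against Ctrl, 2 of the 10 were called, both lower (*Pink1* and *Bnip3l*), where 19.4% of 15567 genes were called (7.97% lower), and the medians were -0.21 and -0.01. Leaving out Ctrl library 1 or Ctrl library 2 left 0 of the 10 called there, and leaving out Ctrl library 3 or either of libraries 1 and 2 of Ctrl+I/R left 1. The I/R libraries lay wholly apart from the sham libraries for 8 genes in PT-KO (70.8% of all genes tested) and for 5 genes in the controls (43.6%). The summed proximal tubule markers fell over the same comparisons, with 10 of 10 called lower after I/R in PT-KO and 3 of 10 in Ctrl+I/R against Ctrl. Within Ctrl+I/R, library 2 had the lowest sum (5851 CPM) and the lowest *Opa1*, *Mfn1*, *Fis1*, *Pink1*, *Bnip3* and *Bnip3l*. However, *Mfn2*, *Mff* and *Fundc1* were lowest in library 1, and *Dnm1l* was highest in library 2. Markers of other segments moved as well. After I/R in PT-KO, 4 of 4 thick ascending limb, 4 of 4 collecting duct principal cell, 3 of 4 intercalated cell and 2 of 3 distal convoluted tubule markers were called lower, and the other of the last list was called higher. After I/R in the controls, 3 of 3 distal convoluted tubule, 3 of 4 intercalated cell and 3 of 4 podocyte markers were called lower. Leukocyte markers were called higher in 7 of 8 after I/R in the controls, and in PT-KO 3 of 7 were higher and 3 lower. Endothelial markers were called higher in 3 of 5 and lower in 1 after I/R in PT-KO, and in the controls 1 of 5 was called, lower. The part of these markers in the results was not tested.

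Between the genotypes after I/R, *Mff* and *Bnip3l* were higher in the libraries labelled PT-KO+I/R than in those of Ctrl+I/R, and the other 8 genes passed no test. *Mff* was higher by 0.43 ± 0.10 on the log2 scale (adjusted p = 0.00979 by edgeR) and *Bnip3l* by 0.39 ± 0.10 (adjusted p = 0.0164 by edgeR), and for both the 3 libraries of each group did not overlap. *Dnm1l* did not overlap either, with a difference of 0.23 ± 0.11 (adjusted p = 0.114 by edgeR). *Mfn2* (-0.29 ± 0.14, adjusted p = 0.112 by edgeR), *Bnip3* (-0.25 ± 0.16) and *Opa1* (-0.21 ± 0.13) had negative values. Over all 15281 genes tested, 46.9% were called and 58.7% did not overlap between the groups, against 2 and 3 of the 10. These calls depended on the scaling: with total counts in place of TMM, the median of all genes moved to -0.21 and the share of calls that were higher from 48% to 28%. *Mff* (0.23, adjusted p = 0.102 by edgeR) and *Bnip3l* (0.19, adjusted p = 0.179 by edgeR) then did not pass, and *Opa1* (-0.41, adjusted p = 0.0217), *Mfn2* (-0.50, adjusted p = 0.0181) and *Bnip3* (-0.45, adjusted p = 0.0495) were called lower. *Bnip3l* did not pass without Ctrl+I/R library 1 (0.39, adjusted p = 0.052 by edgeR), and *Opa1* passed without Ctrl+I/R library 2 (-0.32, adjusted p = 0.0374 by edgeR). *Bnip3l* is abundant in maturing red blood cells, and 4 of 5 tested erythroid markers were lower in PT-KO+I/R than in the injured controls, with a summed level of 42.34 to 49.68 CPM against 82.13 to 215. Summed leukocyte markers were at 56.78 to 66.58 CPM in PT-KO+I/R and 116.9 to 206.8 in Ctrl+I/R, with 2 of 7 tested markers called higher (*Cd68* and *S100a8*) and 4 lower, and 6 of 10 proximal tubule and 3 of 4 thick ascending limb markers were called lower in PT-KO+I/R. Injured tubule markers were called higher in 4 and lower in 1 of 8, and endothelial markers higher in 3 and lower in 1 of 5. Their part in the results was not tested.

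Between the genotypes without I/R, none of the 10 genes was called, and 0 of 15291 genes was called by edgeR. At an unadjusted p under 0.05 edgeR gave 2573 genes, 2 of them among the 10 (*Mfn1* and *Pink1*), and DESeq2 called 458 genes and 0 of the 10. The log2 differences of PT-KO from Ctrl ran from -0.20 ± 0.09 (*Bnip3l*) to 0.29 ± 0.11 (*Pink1*), with *Mfn1* at 0.28 ± 0.09 and *Opa1* at 0.17 ± 0.08. All 3 libraries labelled PT-KO were above all 3 Ctrl libraries for *Mfn1* and *Opa1* and below them for *Bnip3l*, where 21% of all genes did not overlap. Without Ctrl library 3, the only Ctrl library without *Xist*, *Mfn1* passed (0.36, adjusted p = 0.0228 by edgeR), in a fit that called 1930 genes. The comparisons within PT-KO and between sham groups share the PT-KO libraries, so a high PT-KO level enters both.

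The ratio of counts of a pair of genes within a library does not depend on library scaling, and 4 pairs were chosen after the values were seen. *Mff* over *Opa1* was 0.577, 0.576 and 0.529 in Ctrl, 0.491, 0.483 and 0.488 in PT-KO, and 0.602, 0.692 and 0.577 in Ctrl+I/R. In the PT-KO+I/R libraries the ratio was 1.03, 0.91 and 0.954, above every other library. *Dnm1l* over *Opa1* was 0.507 to 0.52 in PT-KO and 0.983 to 1.15 in PT-KO+I/R, also above every other library, although Ctrl+I/R library 2 came close at 0.962. *Bnip3l* over *Bnip3* was 0.58 to 0.733 in PT-KO and 0.922 to 1.186 in PT-KO+I/R, with Ctrl at 0.706 to 0.87 and Ctrl+I/R at 0.618 to 0.719. *Mfn2* over *Mfn1* ran the other way and was 1.155 to 1.326 in Ctrl, 1.109 to 1.259 in Ctrl+I/R, 1.032 to 1.1 in PT-KO and 0.882 to 1.004 in PT-KO+I/R, the lowest of the 4 groups. *Opa1* and *Bnip3* had been seen to fall after I/R in PT-KO mice, and *Mff*, *Dnm1l* and *Bnip3l* to rise or hold. The high ratios in PT-KO+I/R thus restate the values of the single genes and add no support to them. Such ratios were not taken for other genes.

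**Figure D3:**
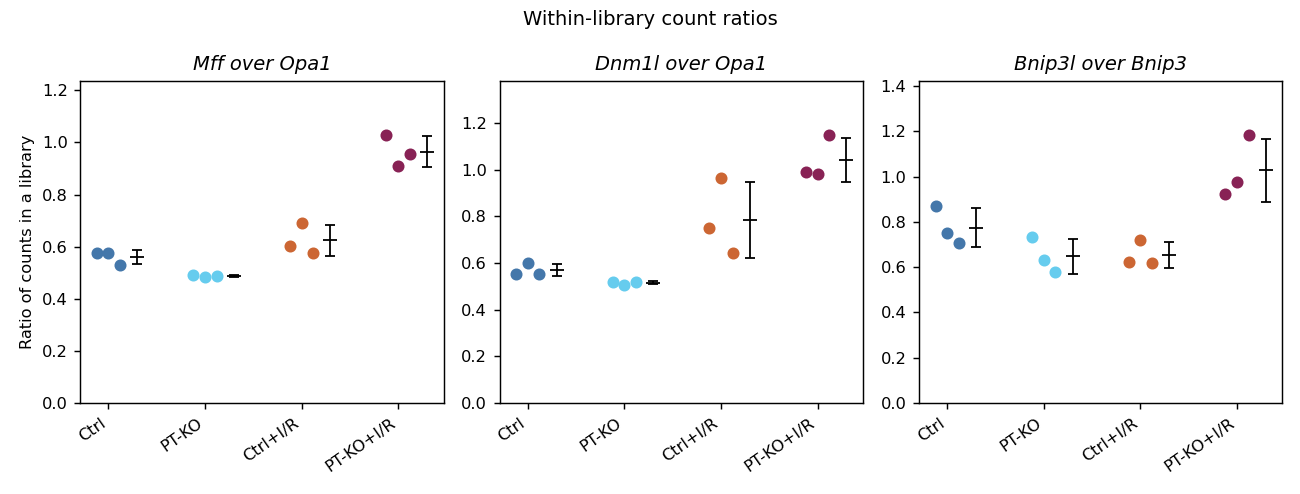
Ratio of the counts of a pair of genes within each library (y axis, from 0) for *Mff* over *Opa1*, *Dnm1l* over *Opa1* and *Bnip3l* over *Bnip3*, by group, with mean ± SD of 3 libraries in black. In all 3 panels the PT-KO+I/R libraries are the highest.

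Over the 12 libraries, *Opa1*, *Mfn1*, *Mfn2*, *Fis1*, *Pink1* and *Bnip3* followed each other (r of 0.689 to 0.908), and *Fundc1* followed them with r of 0.57 to 0.785. Pearson's r of log2 CPM was highest for *Opa1* with *Mfn2* (0.908) and lowest for *Mfn2* with *Dnm1l* (-0.782). These values are descriptions over libraries that share 4 groups, and with the group means removed they were 0.57 and -0.265. Among the genes from *Opa1* to *Bnip3* that followed each other, r then ran from 0.389 to 0.827. Among 9638 genes of at least 10 CPM, those most like *Opa1* included *Nxt2* (r = 0.984) and *Dnajc12* (0.983), and those most like *Pink1* were *Dpyd* (0.983), *Fam3a* (0.982) and *Bckdha* (0.982). *Mfn1* was most like *Mtfr1* (0.983), *Pex3* (0.972) and *Secisbp2l* (0.969), and *Mfn2* most like *Foxred1* (0.977), *Pcdh17* (0.974) and *Nmnat1* (0.973). For the fission genes the likest included *Zfp281* (0.95) and *Egfr* (0.949) to *Dnm1l*, *Mettl9* (0.947), *Pim3* (0.945) and *Retreg1* (0.944) to *Mff*, and *Fhl1* (0.973), *Hpn* (0.969) and *Cutc* (0.967) to *Fis1*. *Bnip3* was most like *Nubpl* (0.969), *Agbl3* (0.958) and *Marc2* (0.958), and *Bnip3l* most like *Pgrmc1* (0.926), *Tcp11l2* (0.919) and *Gpam* (0.91). *Fundc1* was most like *Ctnnbip1* (0.929), *Insig2* (0.865) and *Jkamp* (0.849). With the group means removed, r of these pairs with the likest genes ran from 0.513 (*Bnip3l* with *Pgrmc1*) to 0.982 (*Pink1* with *Dpyd*).

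Other genes of the same pathways were read from fixed lists, where 65.5% of all genes were called after I/R in PT-KO mice and 46.9% between the genotypes after I/R. The list closest to *Opa1* holds genes of the MICOS complex, which shapes cristae. In PT-KO+I/R against PT-KO, 8 of 9 were called, all lower, with a median log2 change of -0.40. They were led by *Apoo* (-1.23 ± 0.14), *Chchd3* (-0.92 ± 0.10), *Chchd6* (-0.82 ± 0.16) and *Micos13* (-0.66 ± 0.12). Against Ctrl+I/R, 4 of 9 were called, all lower, *Chchd6* (-0.92 ± 0.17), *Apoo* (-0.71 ± 0.20), *Chchd3* (-0.61 ± 0.15) and *Dnajc11* (-0.56 ± 0.13), and with total counts 5 were lower. Of the other fusion, membrane protease and outer membrane ubiquitin genes, 4 rose and 5 fell of 14 in PT-KO+I/R against PT-KO. *Miga2*, an outer membrane protein that promotes fusion, was at -1.37 ± 0.12, and the prohibitins *Phb* (-0.99 ± 0.11) and *Phb2* (0.35 ± 0.09), which form 1 inner membrane complex, were called in opposite directions. Of the other fission genes, 4 were higher and 2 lower of 10. *Mtfp1*, an inner membrane protein that promotes fission, had the largest fall of the list (-2.40 ± 0.18), and *Inf2*, a formin that assembles actin at fission sites, the largest rise (1.92 ± 0.20). Of 6 mitochondrial transport genes, 3 fell and 1 rose, with *Rhot2*, the adaptor Miro2, at -0.86 ± 0.10 and the kinesin *Kif5b* at 0.40 ± 0.08.

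Of 19 tested mitophagy genes other than the 10, 5 rose and 8 fell in PT-KO+I/R against PT-KO. *Sqstm1*, the cargo adaptor p62, was at 1.06 ± 0.12 (adjusted p = 2.76e-05 by edgeR). *Sqstm1* therefore rose while *Pink1* fell, and in Ctrl+I/R against Ctrl the 3 called of the 19 genes, where 19.4% of all genes were called, were *Sqstm1* (0.66 ± 0.19), *Optn* (0.47 ± 0.12) and *Nbr1* (-0.41 ± 0.11). A fit to all 12 libraries called 2 genes of the list higher and 4 lower there, and the same fit with sex 1 higher and 3 lower. Against Ctrl+I/R, *Sqstm1* was at 0.86 ± 0.17, with 7 higher and 4 lower of 19, and with total counts 2 higher and 5 lower. Core autophagy genes were called higher in 1 and lower in 6 of 30 in Ctrl+I/R against Ctrl (median -0.14). That split depended on the setting: total counts left 1 higher and 1 lower call (median -0.018). A joint fit to all 12 libraries gave 1 and 12 such calls (median -0.146). Of the 30 genes, 11 were called higher and 8 were called lower after I/R in PT-KO mice (median 0.04). They were called higher in 17 and lower in 4 of 30 against Ctrl+I/R, with a median of 0.36, but with total counts in 8 and 7, with a median of 0.16. *Wipi1* (1.92 ± 0.14) and *Atg7* (1.06 ± 0.11), which act in phagophore formation and LC3 conjugation, were highest, and the LC3 protease *Atg4c* was lowest (-1.31 ± 0.13). Of the MiT/TFE factors, which drive autophagy and lysosome genes, *Tfec* (-2.23 ± 0.23), *Mitf* (-0.98 ± 0.18) and *Tfeb* (-0.43 ± 0.13) were lower and *Tfe3* was higher (0.63 ± 0.16) against Ctrl+I/R, and with total counts 0 was called higher and 3 lower.

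Most of the other HIF targets that were called moved in the opposite direction to *Bnip3*. In PT-KO+I/R against PT-KO, 10 were higher and 5 lower of 18, with a median of 0.36, led by the hexokinase *Hk2* (3.40 ± 0.36) and the glucose transporter *Slc2a1* (2.36 ± 0.19), while *Pdk1*, a kinase that limits entry of pyruvate into mitochondria, was at -1.99 ± 0.14. Of 7 HIF regulators, 2 were higher and 1 lower, with *Hif1a* at 0.89 ± 0.12, *Vhl* at 0.59 ± 0.12 and *Egln1* at -0.25 ± 0.09. Regulators of mitochondrial biogenesis were lower in 7 and higher in 2 of 11, with a median of -0.52. *Esrra* (-1.94 ± 0.11), *Ppargc1a* (-1.58 ± 0.10) and *Esrrg* (-1.28 ± 0.09), which drive oxidative genes together, fell, and the related coactivator *Pprc1* rose (1.5 ± 0.17). Of 10 mitochondrial mass markers, such as import receptors and porins, 2 were higher and 2 lower, with a median of 0.00.

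**Figure D4:**
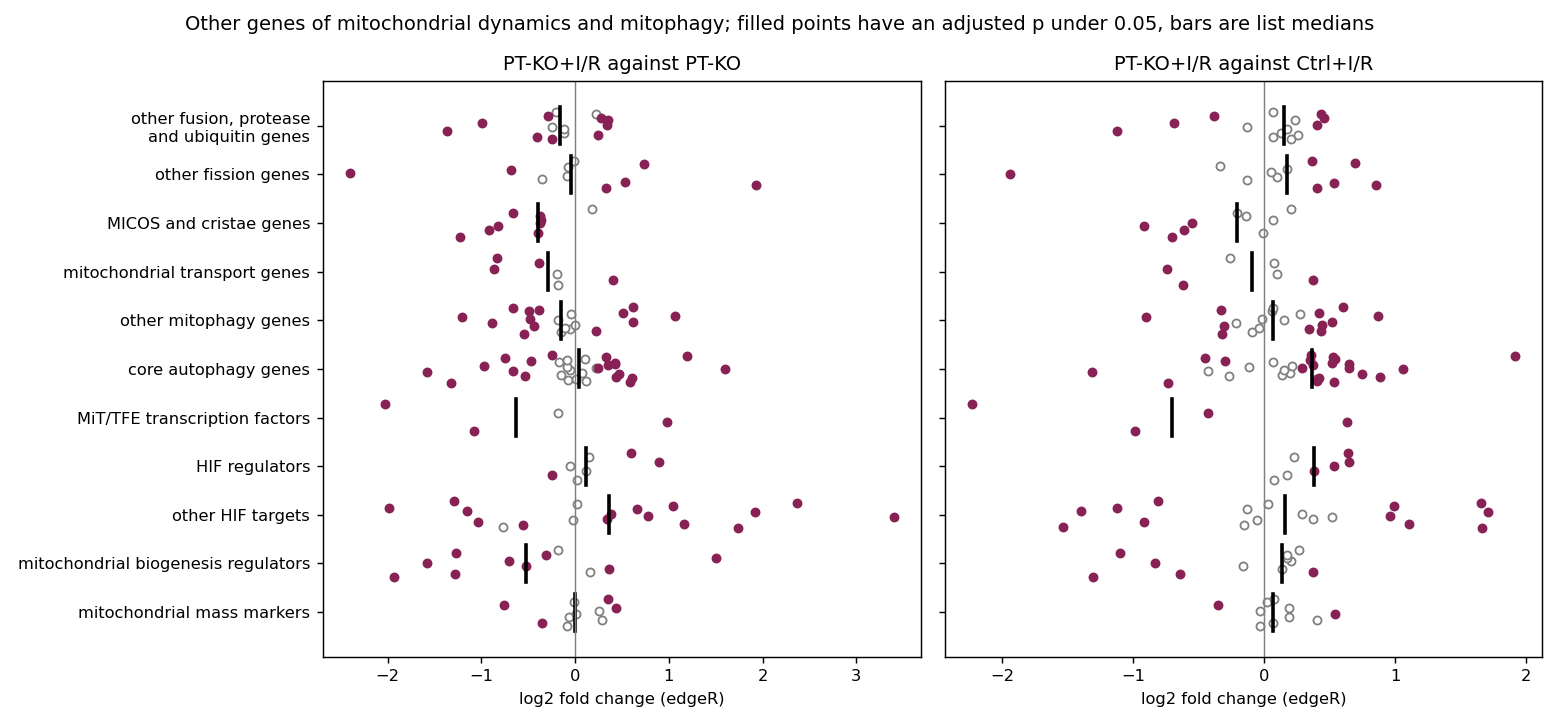
Log2 fold change from edgeR (x axis) of the other genes of mitochondrial dynamics, mitophagy and their regulators by list (y axis), for I/R in PT-KO mice (PT-KO+I/R against PT-KO, left) and for the genotypes after I/R (right). Each point is 1 gene, filled where the adjusted p is under 0.05, and bars are list medians. The MICOS and cristae genes called lie below 0 in both panels, and the core autophagy genes have a median of 0.04 on the left and 0.36 on the right.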

How the data were processed

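RNA was extracted from kidney cortex (TRIzol, and RNeasy in the labels) and sequenced on an Illumina platform by the authors. The submitters' processing notes name HISAT2 2.0.4 and mm10, while the count program, annotation and strand setting are not given in the sources used here. The authors deposited 1 table of raw read counts of 55487 genes in 12 libraries, neither normalized nor filtered. The column of Ctrl library 3 names its group but matches no title, since the Ctrl titles are numbered 1, 2 and 4. The labels name separate samples and do not say more, so p-values measure the spread between these samples.

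Symbols and positions come from GENCODE M21. Low counts were removed with filterByExpr and libraries scaled by TMM. The test was quasi-likelihood (edgeR 4.0.16, R 4.3.3), fitted to 6 libraries per comparison, or to all 12 for the interaction, with Benjamini-Hochberg adjustment over all tested genes and a threshold of 0.05. All 10 genes passed the filter in every comparison. Levels are TMM-scaled CPM. Near-identical copies were searched at 95% identity over at least 200 bases. Alternatives were DESeq2 1.42.0, total counts, no filter, at least 10 counts in every library, a replicate block, 1 fit to 12 libraries, the same with sex, and leaving out each library. The methods were tested on simulated data.

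The 10 genes and the other lists were chosen with earlier results of these data known. Of each other list, the called genes with the largest absolute log2 change were named, at most 4 per list and comparison, and for each of the 10 genes the 3 with the highest r of log2 CPM (prior count 2). Of the listed genes, *Calcoco2* and *Gdap1* had too few counts to be tested in any comparison, and *Mtfr2* and *Pld6* in 2. A few genes that met these rules are not reported here.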

Additional observations from a re-analysis of the deposited data

Results flagged for a closer look

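The response to I/R differed between the genotypes, by the interaction term of edgeR over 12 libraries, for 2 of the 10 genes: *Bnip3l* (0.59 ± 0.13 on the log2 scale, SE, adjusted p = 0.00668) and *Mff* (0.47 ± 0.12, adjusted p = 0.0124). A positive value means a higher change in PT-KO than in control mice, and 14.3% of all 16168 genes tested were called in that direction. Without the low-count filter *Mff* did not pass (0.44, adjusted p = 0.0651). With sex in the fit, where Ctrl library 3 alone stands for Ctrl, the values were 0.54 (adjusted p = 0.0383) and 0.45 (adjusted p = 0.0488). Of the other mitophagy genes, 2 were called higher and 3 lower of 19. In each of the 10 remaining lists, the called gene with the largest interaction was as follows. Values above 0 were found for the glucose transporter *Slc2a1* (1.92 ± 0.33), the phagophore protein *Wipi1* (1.69 ± 0.16) and the HIF ubiquitin ligase subunit *Vhl* (0.64 ± 0.15). Values below 0 were found for the fission gene *Mtfp1* (-1.92 ± 0.29), the MiT/TFE factor *Tfec* (-1.85 ± 0.30), the nuclear receptor *Esrra* (-1.24 ± 0.27), the transport adaptor *Rhot2* (-0.87 ± 0.14), the fusion gene *Miga2* (-0.86 ± 0.25), the MICOS gene *Apoo* (-0.76 ± 0.23) and the porin *Vdac1* (-0.60 ± 0.16). The adjusted p of these 10 genes ran from 5.03e-05 to 0.0268 by edgeR.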

How the results depend on the processing

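Of 340 values of single genes under other settings, 315 kept their direction and their side of the threshold, and of 360 with a library left out, 329 did. In PT-KO+I/R against PT-KO, 8 of the 10 genes were called under every setting, and 7 to 9 with a library left out. Of all 15155 genes tested there, 65.5% were called in the main fit, and 8437 genes with the replicate block. In Ctrl+I/R against Ctrl, 2 were called, but 1 with total counts, 1 with the replicate block, 3 in 1 fit to all 12 libraries, and 0 to 3 with a library left out. Between the genotypes after I/R, 2 were called, but 0 with the replicate block (*Mff* 0.46 and *Bnip3l* 0.46, both adjusted p = 0.189 by edgeR), 3 others with total counts, and 1 to 3 with a library left out. With the replicate block, a comparison of 2 groups rests on the library numbers that both groups share. Between the genotypes after I/R these were 2 and 4, so the block also drops libraries. In both comparisons against Ctrl they were 1 and 2, the numbers of the Ctrl libraries with *Xist*. In PT-KO against Ctrl the count was 0 to 1 with a library left out, and in the interaction 1 without the filter, 3 with total counts, 3 with at least 10 counts, and 2 to 3 with a library left out. Replicate numbers did not pair the samples: the 12 pairs with the same number had a median residual correlation of -0.022.

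Values that changed sign were small. In PT-KO+I/R against PT-KO, *Bnip3l* was -0.004 with DESeq2 and -0.029 with at least 10 counts, and -0.064 to 0.067 with a library left out. Between the genotypes after I/R, *Mfn1* was -0.139 with total counts and -0.005 to 0.146 with a library left out, and *Fundc1* -0.158 to 0.018. In PT-KO against Ctrl, total counts gave *Mfn2* -0.07, *Dnm1l* -0.096, *Fis1* -0.02 and *Bnip3* -0.064, the fit with sex gave *Fis1* -0.011 and *Bnip3* -0.012, and the replicate block gave *Fundc1* 0.072. With a library left out there, *Dnm1l* ran from -0.038 to 0.079, *Bnip3* from -0.032 to 0.113, *Mff* from -0.058 to 0.004 and *Fundc1* from -0.097 to 0.074. In the interaction, the fit with sex gave *Pink1* 0.068 and *Fundc1* 0.118, and with a library left out they ran from -0.272 to 0.02 and from -0.146 to 0.027. The cause of these changes was not tested. With total counts 75.4% in place of 58.9% of calls were higher in Ctrl+I/R against Ctrl, and 34.7% in place of 46.5% in the interaction. Over all genes, calls ran from 379 to 4061 in Ctrl+I/R against Ctrl with a library left out, where 3019 were called, and were 4938 in 1 fit to 12 libraries and 2029 with sex. They were 1683 in place of 7169 with the replicate block between the genotypes after I/R. In PT-KO against Ctrl they were 388 without the filter and 1378 with the replicate block. With the block, Ctrl libraries 1 and 2, which carried *Xist*, stand against PT-KO libraries 1 and 2, which did not. Sex and genotype cannot be told apart in that fit. In the interaction, calls were 3215 with the block, in place of 4953. With 3 libraries per group and at least 404 counts of each gene per library, small differences may be missed. Sex differs within Ctrl alone, so the fit with sex sets Ctrl comparisons on Ctrl library 3.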
